A study of Mus musculus with 384 samples.

Results

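Tumour necrosis factor (Tnf), its receptors Tnfrsf1a and Tnfrsf1b, and 7 genes of the NF-kB response (Tnfaip2, Tnfaip3, Nfkbia, Relb, Nfkb1, Nfkb2 and Icam1) were followed in single mouse mammary epithelial cells. These 10 genes of 49585 in the count table were chosen by name, from symbols matched to Ensembl identifiers, and all 10 were measured. The cells were sorted into 5 groups. Ablated hybrid, ablated luminal and ablated basal cells came from mice given 0.2 mg doxycycline into the mammary ducts and killed 1 week later. WT luminal and WT basal cells carried the wild-type label. Every group, the wild-type ones included, has the same strain label, K8rtta/TetO-DTA/K5CreER/Rosa-Tomato on a mixed background, in which a keratin 8 driven transactivator switches on diphtheria toxin A in luminal cells when doxycycline is present and a keratin 5 driven Cre marks basal cells with Tomato. Sorted cells were positive for Tomato and negative for the leukocyte, endothelial and stromal antigens CD45, CD31 and CD140a, and were gated on CD29 and EpCAM. The labels name no animal, age, injection of the wild-type mice or gate for hybrid cells, so each group counts as 1 sample and no test was possible. Ablation, doxycycline, injection, animal and place on the 1 plate cannot be told apart.

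TNF is a cytokine made as a membrane protein and shed as a soluble trimer. Tnfrsf1a is the broadly expressed receptor that carries a death domain, and Tnfrsf1b is a receptor best known from leukocytes and endothelium. Ligand binding activates IkB kinases, which remove the inhibitor IkB-alpha (Nfkbia) and let NF-kB dimers enter the nucleus. Nfkb1 and Nfkb2 encode the precursors of the p50 and p52 subunits, and Relb encodes the partner of p52 in the alternative pathway. Nfkbia and Tnfaip3, which encodes the ubiquitin-editing protein A20, are targets of NF-kB that shut the response down. Icam1 encodes an adhesion molecule for leukocytes, and Tnfaip2 is a TNF-induced gene named for that induction. In the mammary gland NF-kB signalling is known for its part in alveolar development and involution.

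The stretches of 60 bases before 1 RefSeq start of Tnfaip3 and of Nfkbia are shown because they hold the DNA motif that NF-kB dimers bind. They are RefSeq sequences on GRCm38.p6, read 5′ to 3′ in the direction of the gene, with every match to the 10-base kB consensus on either strand in capitals.
Tnfaip3, chr10:19015411-19015470, minus strand: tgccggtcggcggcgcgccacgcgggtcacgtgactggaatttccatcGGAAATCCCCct
Nfkbia, chr12:55492648-55492707, minus strand: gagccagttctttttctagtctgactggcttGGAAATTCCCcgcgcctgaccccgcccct
Each stretch holds 1 match. Tnfaip3 has 2 RefSeq windows, and the start used lies inside the gene bounds given below, where the stretch falls in an intron of a longer GENCODE transcript. Windows of 300 bases, 250 before to 50 after a start, were given for 8 of the 10 genes, and those of Tnfaip3, Nfkbia and Nfkb2 hold the consensus. The corresponding stretch of Nfkb2, which has 3 windows, holds 4 matches, some of them in overlapping letters, and is not printed because it lies in an annotated exon. It stands in 4.51% of 32851 windows of that length. This form was picked after 5 forms of the motif had been searched, and the choice of form decides which genes match. With any sixth base, 4 of the genes match against 8.46% of all windows, and a looser 9-base consensus matches in 6 genes against 7.66%. GGAATTTCC matches in Tnfaip3, Nfkbia and Icam1 against 0.317% of windows, and a stricter 10-base form with 1 free base in Nfkbia and Nfkb2 against 0.411%. A gene counts as matching when any of its windows does, and the 8 genes have 11 windows, while the percentages are of windows. A match is a run of letters and not a measured binding site.

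The plate held 374 single-cell wells, 5 libraries of many cells with 1 per group, and 5 negative control wells. Of the single-cell wells 319 had at least 100000 reads in genes, 1000 genes and no more than 20% mitochondrial reads: 85 hybrid, 76 ablated luminal, 71 ablated basal, 43 WT luminal and 44 WT basal cells. Kept cells held 118310 to 3835005 reads. No pair of wells was identical, each well was its own library, and no doublet caller was run. After thinning every cell to 100000 reads, the median number of genes with at least 5 reads was 2992 in hybrid, 2826.5 in ablated luminal, 1615 in ablated basal, 1909 in WT luminal and 1215 in WT basal cells, and the part of this difference in the shares of cells was not tested. The lineage markers followed the labels for both wild-type gates. Basal markers summed to 17745, 6413 and 33650 CPM, reads per 1000000 reads in genes, in hybrid, ablated luminal and ablated basal cells, and to 168 and 21079 CPM in WT luminal and WT basal cells. Luminal markers summed to 14300 CPM in hybrid, 24376 in ablated luminal, 1505 in ablated basal, 27329 in WT luminal and 2005 in WT basal cells. Hybrid cells thus held both sets, as their label says. Single ablated luminal cells held basal markers such as Krt14 at 3920 CPM, against 35.4 CPM in WT luminal cells. The library of many ablated luminal cells held 497 CPM of basal markers in sum, less than the 6413 CPM of its single cells.

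Tnf, on chromosome 17 at 35199381 to 35202007 of GRCm38, was read in hybrid and luminal cells and was at background in both basal gates. The pooled reads of each gate gave 64.3 CPM in hybrid, 107 CPM in ablated luminal and 0.203 CPM in ablated basal cells, and 205 CPM in WT luminal and 0.563 CPM in WT basal cells. A cell was counted as holding a gene when at least 5 of its 100000 thinned reads fell in it. By that measure 13 of 85 hybrid cells (15.3%, exact Clopper-Pearson 95% interval 8.40 to 24.7%), 23 of 76 ablated luminal cells (30.3%, 20.2 to 41.9%) and 12 of 43 WT luminal cells (27.9%, 15.3 to 43.7%) held Tnf. None of the 71 ablated basal and none of the 44 WT basal cells did, which allows shares of up to 4.23% and 6.82% by the limit of 3 cells over the number of cells, and of up to 5.06% and 8.04% by the exact interval. Most cells of the 3 groups with Tnf held almost none, with medians of 0.734, 1.09 and 1.24 CPM per cell in hybrid, ablated luminal and WT luminal cells, while the highest cells reached 1643, 1683 and 2369 CPM. The 5 negative control wells held 1 to 3 Tnf reads each. At that rate 142 reads would be expected over the ablated basal cells, which held 12, and 88 over the WT basal cells, which held 26. The 3 shares among hybrid, ablated luminal and WT luminal cells have overlapping intervals, so their order is not resolved by counting error alone. All intervals here cover counting error only, since reads amplified without molecular identifiers are not independent molecules.

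The libraries of many cells placed Tnf in the same 3 gates but in another order. They held 146 CPM in hybrid, 81.7 CPM in ablated luminal, 0.440 CPM in ablated basal, 17.9 CPM in WT luminal and 0 CPM in WT basal. The ablated luminal to WT luminal ratio of Tnf was −0.88 on the log2 scale over single cells and 1.72 between these libraries, so the 2 kinds of library gave opposite signs.

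Tnfrsf1a, the death-domain receptor (chromosome 6, 125349362 to 125362484), was read in every gate. Its levels lay between 152 and 263 CPM, at 207 in hybrid, 152 in ablated luminal, 199 in ablated basal, 152 in WT luminal and 263 in WT basal cells. No pair of groups compared was 2-fold apart. The share of cells holding it was 70.6% in hybrid cells (60 of 85, 59.7 to 79.98%), 55.3% in ablated luminal (42 of 76), 39.4% in ablated basal (28 of 71, 28.03 to 51.7%), 39.5% in WT luminal (17 of 43) and 45.5% in WT basal cells (20 of 44). The hybrid and ablated basal intervals do not overlap although their CPM are 1.04-fold apart. Fewer ablated basal cells held the gene, and the highest of them reached 1628 CPM, against 863 CPM for the highest hybrid cell. In the libraries of many cells ablated basal was the highest for Tnfrsf1a, at 491 CPM against 141 CPM in WT basal, the opposite direction to the single cells.

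Tnfrsf1b (chromosome 4, 145213463 to 145246870) was rare. It was held by 6 of 85 hybrid cells, 4 of 76 ablated luminal cells and 2 of 43 WT luminal cells, and by no cell of either basal gate. Levels were 9.89 CPM in hybrid, 6.88 CPM in ablated luminal and 0.0509 CPM in ablated basal cells, and 32.1 CPM in WT luminal cells, with no read in WT basal cells. Of the WT luminal reads 84.7% came from 1 cell, and without it the level was 5.06 CPM. The library of many hybrid cells held 33.5 CPM and the ablated luminal library 1.14 CPM, while the ablated basal, WT luminal and WT basal libraries held no read of it. The negative control wells held no read of it either. Per kilobase of exon, Tnfrsf1a exceeded Tnfrsf1b in every gate, at 79.7 against 2.59 CPM per kb in hybrid cells and 58.6 against 8.41 CPM per kb in WT luminal cells.

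**Figure D1:**
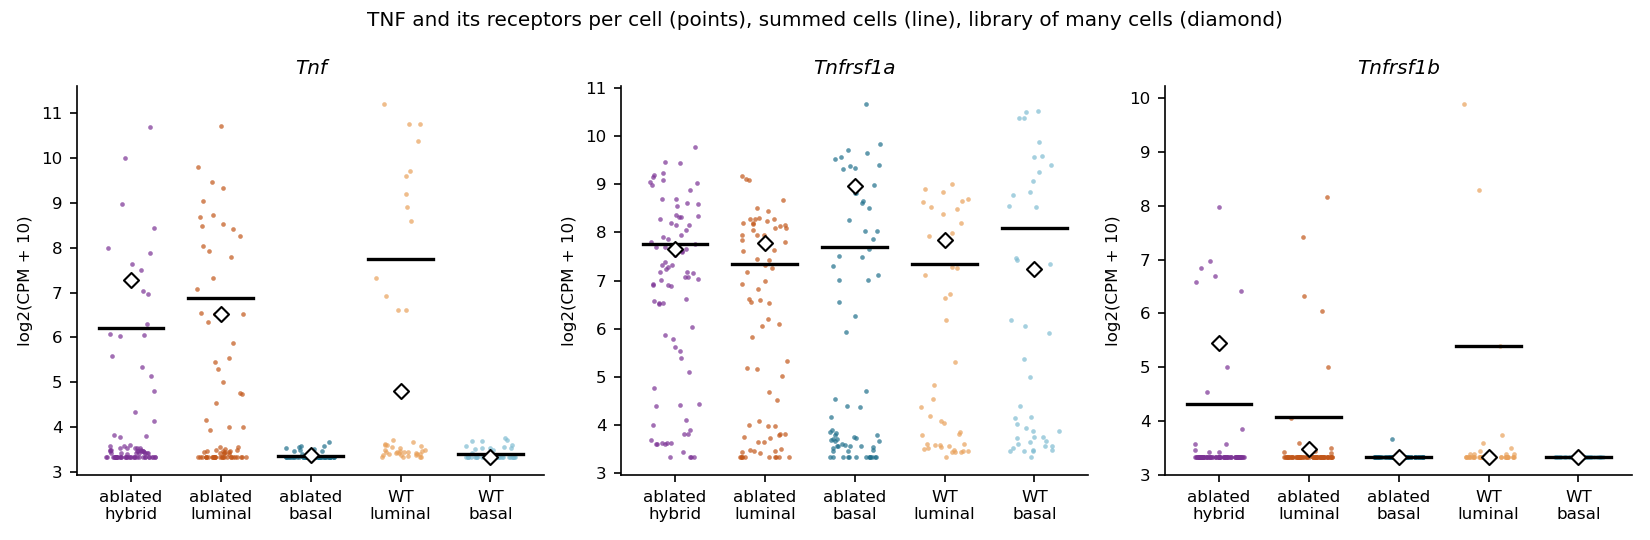
Levels of Tnf, Tnfrsf1a and Tnfrsf1b on a log2(CPM + 10) axis in the 5 groups: points are single cells, the line is the level of the summed cells and the diamond the library of many cells. Cells with Tnf reach 1643 CPM in hybrid, 1683 in ablated luminal and 2369 in WT luminal cells, and no cell of either basal gate passes 3.54 CPM.

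Nfkbia, the NF-kB inhibitor and feedback target (chromosome 12, 55489410 to 55492647), had the widest reach of the response genes. It was held by 82 of 85 hybrid, 69 of 76 ablated luminal and 56 of 71 ablated basal cells, while the WT luminal gate had it in 36 of 43 cells and the WT basal gate in 25 of 44. Levels were 1294, 1516 and 969 CPM in hybrid, ablated luminal and ablated basal cells, and 2046 and 526.3 CPM in WT luminal and WT basal cells. WT basal cells were the lowest by level and by share, and the WT basal share (56.8%, 41.03 to 71.7%) lay below the hybrid (96.5%, 90.03 to 99.3%) and ablated luminal (90.8%, 81.9 to 96.2%) intervals. Median levels per cell were 814, 1138, 639, 1152 and 147 CPM in hybrid, ablated luminal, ablated basal, WT luminal and WT basal cells. The negative control wells held 16 to 27 Nfkbia reads each. At that rate 1717 reads would be expected over the hybrid cells, which held 124243, and 888.8 over the WT basal cells, which held 24296. A well with few reads could pass the detection rule on such reads, and their part in the shares was not tested.

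Tnfaip3, the A20 gene (chromosome 10, 19000910 to 19015657), was held by 19 of 85 hybrid, 18 of 76 ablated luminal and 8 of 71 ablated basal cells, and by 10 of 43 WT luminal cells and 1 of 44 WT basal cells. Its levels of 53.04, 59.9, 65.2, 138 and 46.9 CPM in that order hide this difference in shares. The 1 WT basal cell gave 98.2% of the reads of its group, and the WT basal level without it was 0.862 CPM. The library of many WT basal cells nevertheless held 91.7 CPM of Tnfaip3 and the WT luminal library 1.99 CPM, the reverse of the single cells.

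Tnfaip2 (chromosome 12, 111442469 to 111455018) went with the gates that held Tnf. It was at 149.8 CPM in hybrid, 25.7 CPM in ablated luminal and 1.22 CPM in ablated basal cells, and at 93.7 CPM in WT luminal and 0.152 CPM in WT basal cells. The cells holding it numbered 22 of 85 hybrid, 9 of 76 ablated luminal, 1 of 71 ablated basal, 7 of 43 WT luminal and 0 of 44 WT basal. The libraries of many cells kept the low basal levels, with 206 CPM in hybrid, 116 in ablated luminal, 0.440 in ablated basal, 25.9 in WT luminal and 0.354 in WT basal. The basal levels lay below what the negative control wells predict for Tnfaip2 in WT basal cells (7 reads against 35.2) and near them in ablated basal cells (72 against 56.8).

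Icam1 (chromosome 9, 21015985 to 21028817) had the opposite layout, with both basal gates and the hybrid gate high and the WT luminal gate low. Levels were 591 CPM in hybrid, 225 CPM in ablated luminal and 625.1 CPM in ablated basal cells, and 52.7 CPM in WT luminal and 717 CPM in WT basal cells. The share of cells holding it was 78.8% in hybrid cells (68.6 to 86.9%), 38.2% in ablated luminal (27.2 to 50.02%), 61.97% in ablated basal (49.7 to 73.2%), 18.6% in WT luminal (8.39 to 33.4%) and 45.5% in WT basal cells (30.4 to 61.1%). The hybrid share exceeded the ablated luminal one and both wild-type ones, with intervals that do not overlap. In the libraries of many cells Icam1 was at 797, 192 and 898 CPM in hybrid, ablated luminal and ablated basal, and at 4.97 and 685 CPM in WT luminal and WT basal, the same layout.

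Relb, the partner of p52 (chromosome 7, 19606217 to 19629438), was highest in hybrid cells and low in both basal gates. Levels were 152 CPM in hybrid, 115 in ablated luminal, 27.7 in ablated basal, 58.5 in WT luminal and 21.3 CPM in WT basal cells. Cells holding it numbered 34 of 85, 26 of 76, 8 of 71, 9 of 43 and 2 of 44 in the same order. In WT basal cells 76.4% of Relb reads came from 1 cell, and the level without it was 5.31 CPM. The libraries of many cells gave the same order, at 147, 49.8, 5.28, 28.8 and 1.06 CPM in hybrid, ablated luminal, ablated basal, WT luminal and WT basal.

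The p50 precursor Nfkb1 (chromosome 3, 135584655 to 135691547) was nearly level, at 199.6 CPM in hybrid, 171 in ablated luminal, 202 in ablated basal, 280.0 in WT luminal and 298 CPM in WT basal cells, and no pair of groups compared was 2-fold apart. The shares of cells holding Nfkb1 were not level, at 65.9% in hybrid (54.8 to 75.8%), 53.9% in ablated luminal, 35.2% in ablated basal (24.2 to 47.5%), 46.5% in WT luminal and 29.5% in WT basal cells (16.8 to 45.2%). The hybrid interval does not overlap that of either basal gate. The p52 precursor Nfkb2 (chromosome 19, 46304320 to 46312385) stood at 90.5, 37.3 and 34.2 CPM in hybrid, ablated luminal and ablated basal cells, and at 74.4 and 52.2 CPM in WT luminal and WT basal cells. Its share of cells was 41.2% in hybrid cells (35 of 85, 30.6 to 52.4%), against 11.3% in ablated basal cells (8 of 71, 4.99 to 21%) and 9.09% in WT basal cells (4 of 44, 2.53 to 21.7%). The libraries of many cells did not follow the single cells for either gene. Nfkb1 was at 196 CPM in the hybrid and 23.7 CPM in the ablated basal library, and Nfkb2 at 33.1 and 89.7 CPM.

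**Figure D2:**
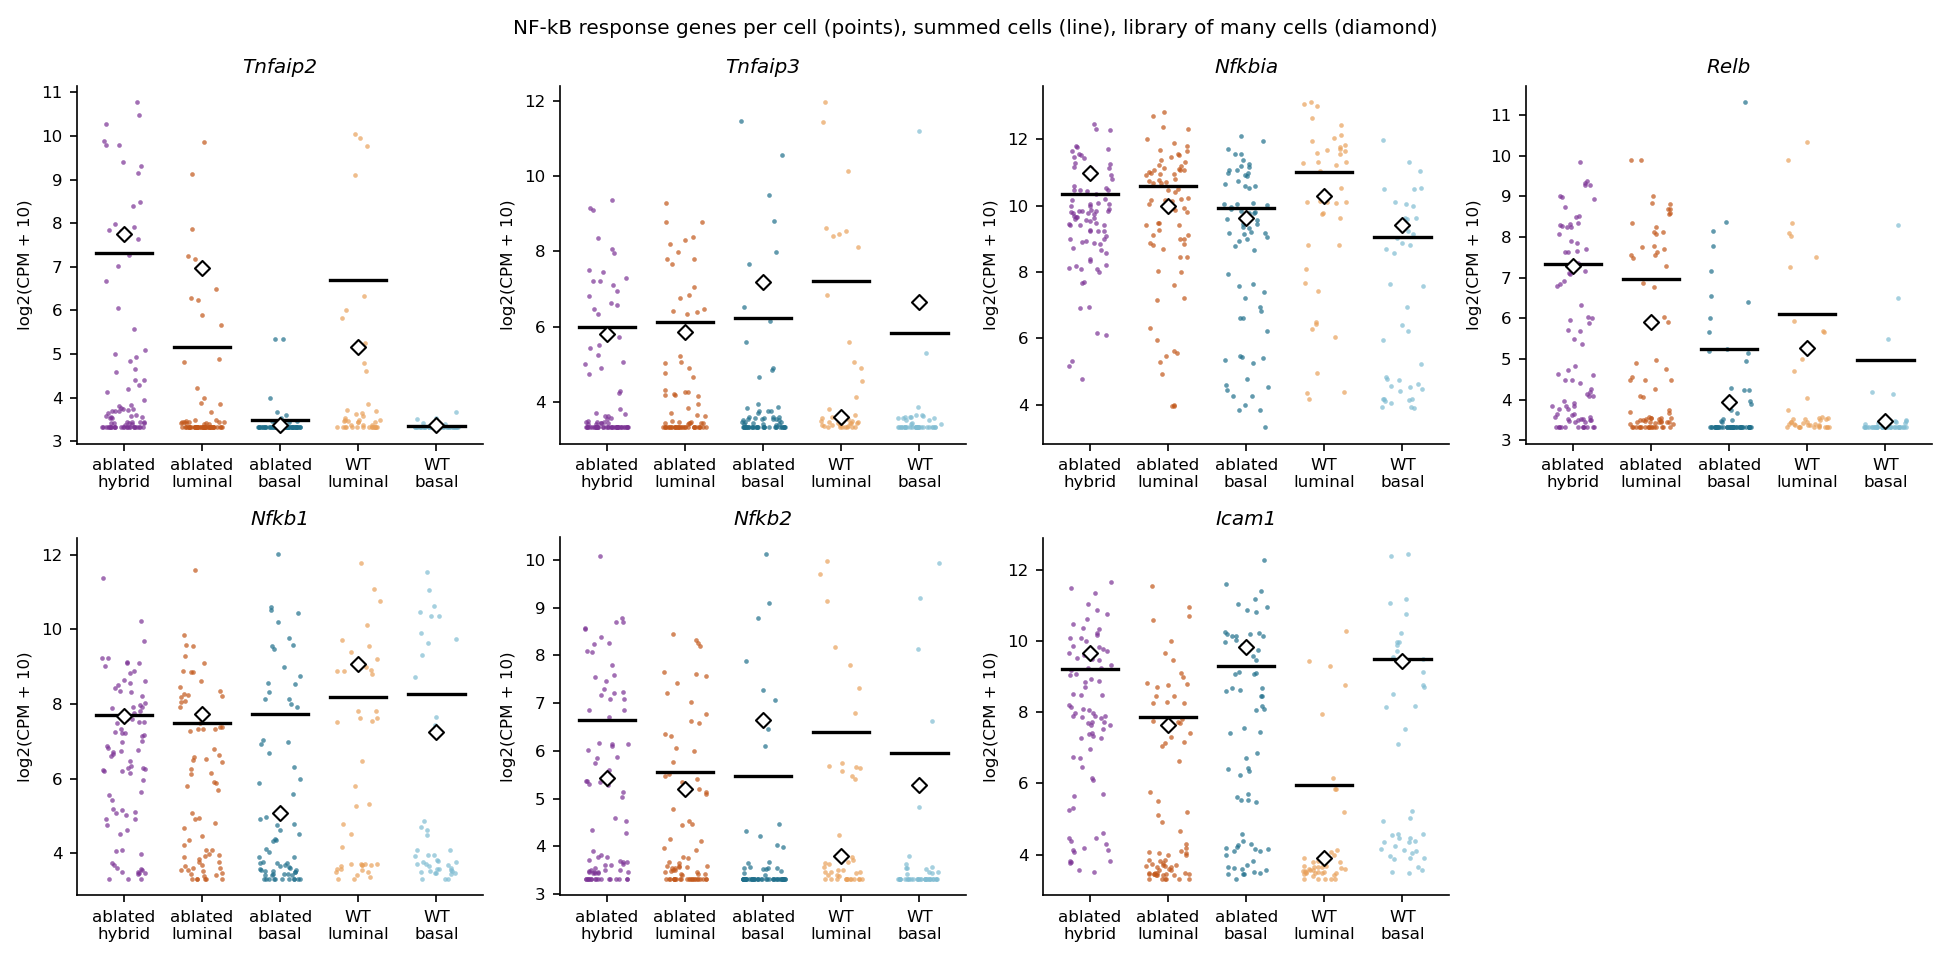
Levels of the 7 response genes on a log2(CPM + 10) axis in the 5 groups: points are single cells, the line is the level of the summed cells and the diamond the library of many cells. Icam1 is low in WT luminal cells, at 52.7 CPM, and Tnfaip2 in both basal gates, at 1.22 and 0.152 CPM.

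**Figure D3:**
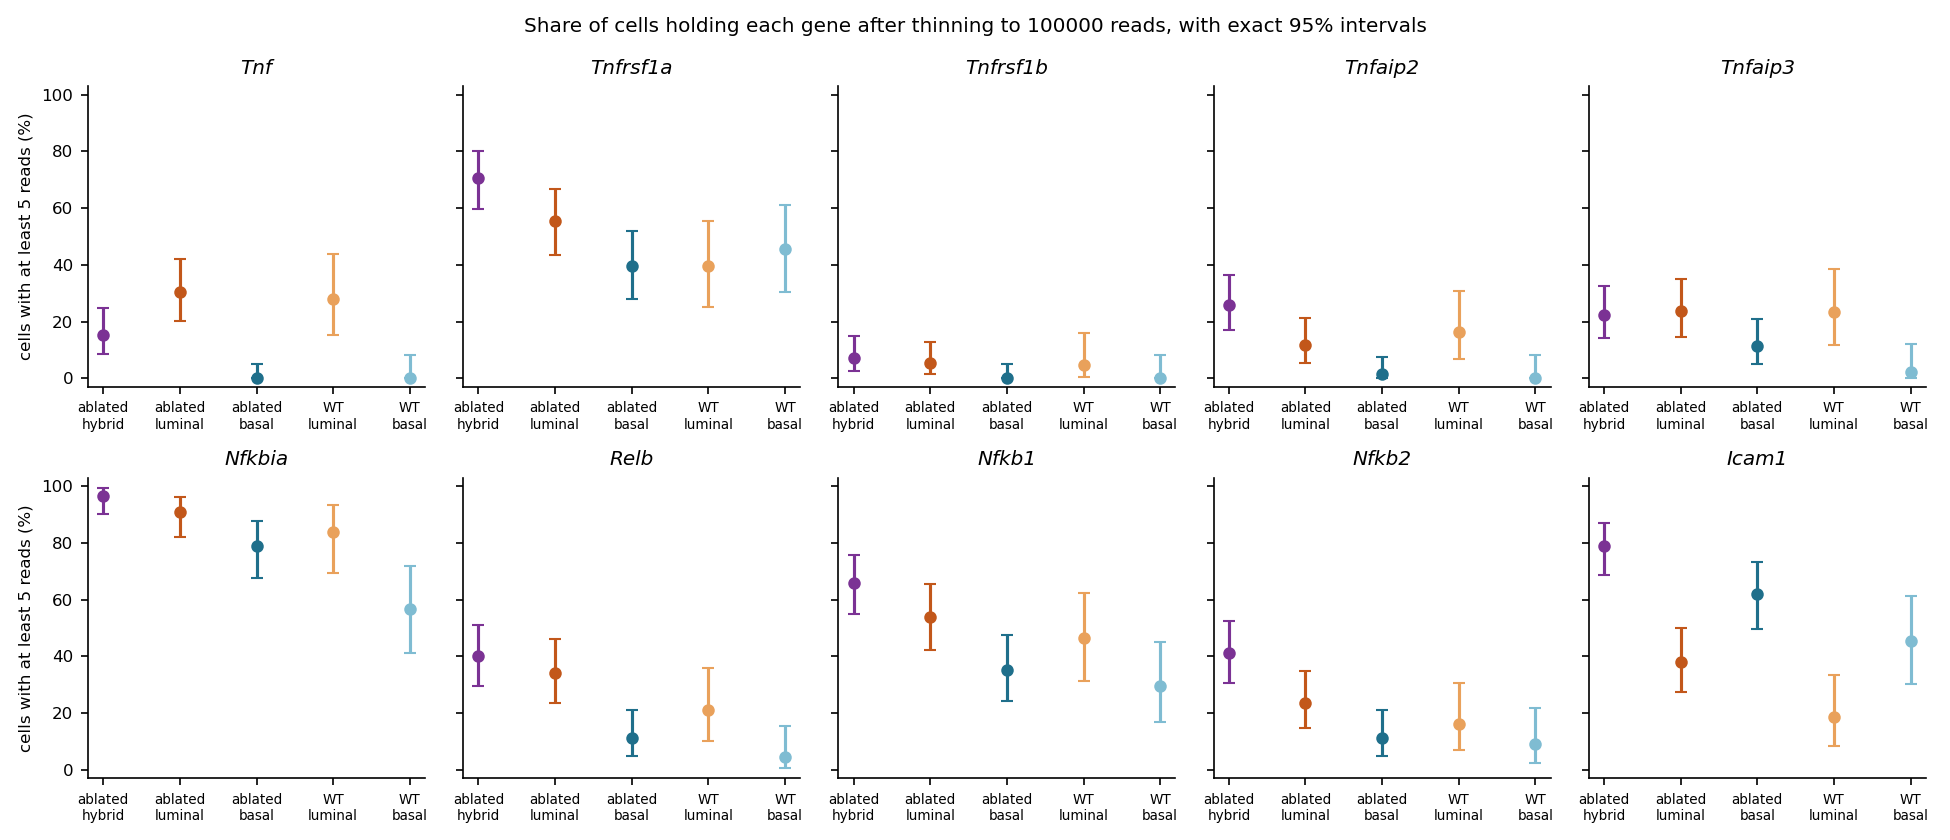
Percent of cells with at least 5 of 100000 thinned reads in each of the 10 genes, with exact Clopper-Pearson 95% intervals over the cells of a group. Hybrid cells hold the most genes per thinned cell, at a median of 2992, and the part of this in their shares was not tested. WT basal cells hold Tnf, Tnfrsf1b and Tnfaip2 in none of 44 cells.

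The levels were compared between groups as log2 ratios after adding 10 CPM, which understates changes of low genes, and a ratio was called past 2-fold at an absolute value of at least 1. The 6 comparisons share groups and are not independent of each other. In WT luminal over WT basal cells 7 of the 10 genes were past 2-fold, against 43.6% of 11106 measured genes. Of these 6 were higher and 1 lower, where 22.33% of all genes were higher and 21.26% lower. Their median log2 ratio was 1.25, against 0.01 over all measured genes. The largest were Tnf at 4.35, Tnfaip2 at 3.35, Tnfrsf1b at 2.07 and Nfkbia at 1.94, followed by Tnfaip3 at 1.38 and by Relb, at 58.5 CPM in WT luminal and 21.3 CPM in WT basal cells. Icam1 was the lower gene, at −3.54. Tnf, Tnfrsf1b and Tnfaip2 were at 0.563, 0 and 0.152 CPM in WT basal cells and counted as measured only through the hybrid and luminal groups. With 10 CPM added they could not have been past 2-fold lower, so the counts do not bear on their direction. Without its top cell Tnfrsf1b stood at 0.59. Between the libraries of many cells Tnfaip3 had the opposite sign, at −3.08, and Nfkbia stood at 0.89. With equal weight per cell Tnfrsf1a was past the bound, at −1.14.

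In ablated basal over WT basal cells none of the 10 genes was past 2-fold, against 34.7% of all measured genes, 19.79% higher and 14.95% lower. Tnf, Tnfrsf1b and Tnfaip2 could not have been, since none passed 1.22 CPM in either basal gate and 10 CPM was added. They counted as measured only through the hybrid and luminal groups, so the count does not bear on them. Of the other genes the nearest was Nfkbia at 0.87 (969 CPM in ablated basal and 526.3 CPM in WT basal cells), with a share of cells 22.1 points higher. The median was −0.02, against 0.05 over all genes. Without the top cell of each gene Nfkbia stood at 1.04 and Tnfaip3 at 2.12, since 1 WT basal cell held nearly all Tnfaip3 reads. Between the libraries of many cells Tnfrsf1a was at 1.73, Nfkb2 at 1.35 and Nfkb1 at −2.19.

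In ablated luminal over WT luminal cells Icam1 was past 2-fold higher at 1.91, and Tnfaip2, Tnfrsf1b and Tnfaip3 were lower at −1.54, −1.32 and −1.08. That is 4 genes of 10, against 21.9% of all genes, 15.27% higher and 6.609% lower. The median of the 10 genes was −0.76, against 0.21 over all measured genes. Median-of-ratios scaling moved the median of all genes by −0.22, and 1 gene was then higher and 6 lower, Tnf among the lower at −1.19. The Icam1 call had the same direction in the libraries of many cells, at 3.75. The 3 lower genes did not, at 1.82 for Tnfaip2, 0.16 for Tnfrsf1b and 2.28 for Tnfaip3. Tnfaip3 stood at −0.48 and Tnfrsf1b at −0.15 without the top cell of each group. Basal markers moved in the same contrast over single cells, at a median of 2.47 with 8 of 9 past 2-fold higher. The many-cell libraries gave 1.55 for Krt14 and 2.03 for Krt17, but −0.22 for Krt5 and −1.25 for Acta2. Over single cells these 4 values were 6.44, 4.17, 4.78 and 2.67. The part of basal markers in the Icam1 value was not tested.

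In hybrid over ablated basal cells Tnfaip2 (3.83), Tnf (2.86), Relb (2.10) and Nfkb2 (1.19) were past 2-fold higher and none lower, against 24.9% of all genes past 2-fold, 16.04% higher and 8.869% lower. The median was 0.70, against 0.14 over all genes. At 0.203 and 1.22 CPM in ablated basal cells, Tnf and Tnfaip2 could not have been past 2-fold lower. The counts do not bear on their direction. Tnfrsf1b stood just inside the bound at 0.98, and Icam1 at −0.08. Nfkb2 was at 0.95 under median-of-ratios scaling, 0.94 with equal weight per cell and −1.21 between the libraries of many cells. Tnf, Tnfaip2 and Relb kept their direction there, at 3.90, 4.37 and 3.36.

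In hybrid over ablated luminal cells Tnfaip2 (2.16), Icam1 (1.35) and Nfkb2 (1.09) were past 2-fold higher and none lower, against 10.2% of all genes past 2-fold, 5.997% higher and 4.187% lower. The median was 0.30, against −0.01 over all genes. With equal weight per cell Nfkb2 stood at 0.89. Between the libraries of many cells Nfkb2 was at 0.22 and Tnfaip2 at 0.77. Tnf was at −0.65 over the single cells and at 0.77 between the libraries of many cells. In ablated luminal over ablated basal cells Tnf (3.52), Relb (1.73) and Tnfaip2 (1.67) were higher and Icam1 lower at −1.43, against 32.4% of all genes past 2-fold, 19.27% higher and 13.17% lower. The median there was 0.37, against 0.16 over all genes. Tnf and Tnfaip2 could again not have been past 2-fold lower, at 0.203 and 1.22 CPM in ablated basal cells. With equal weight per cell Relb stood at 0.86, since 1 ablated basal cell reached 2544 CPM.

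**Figure D4:**
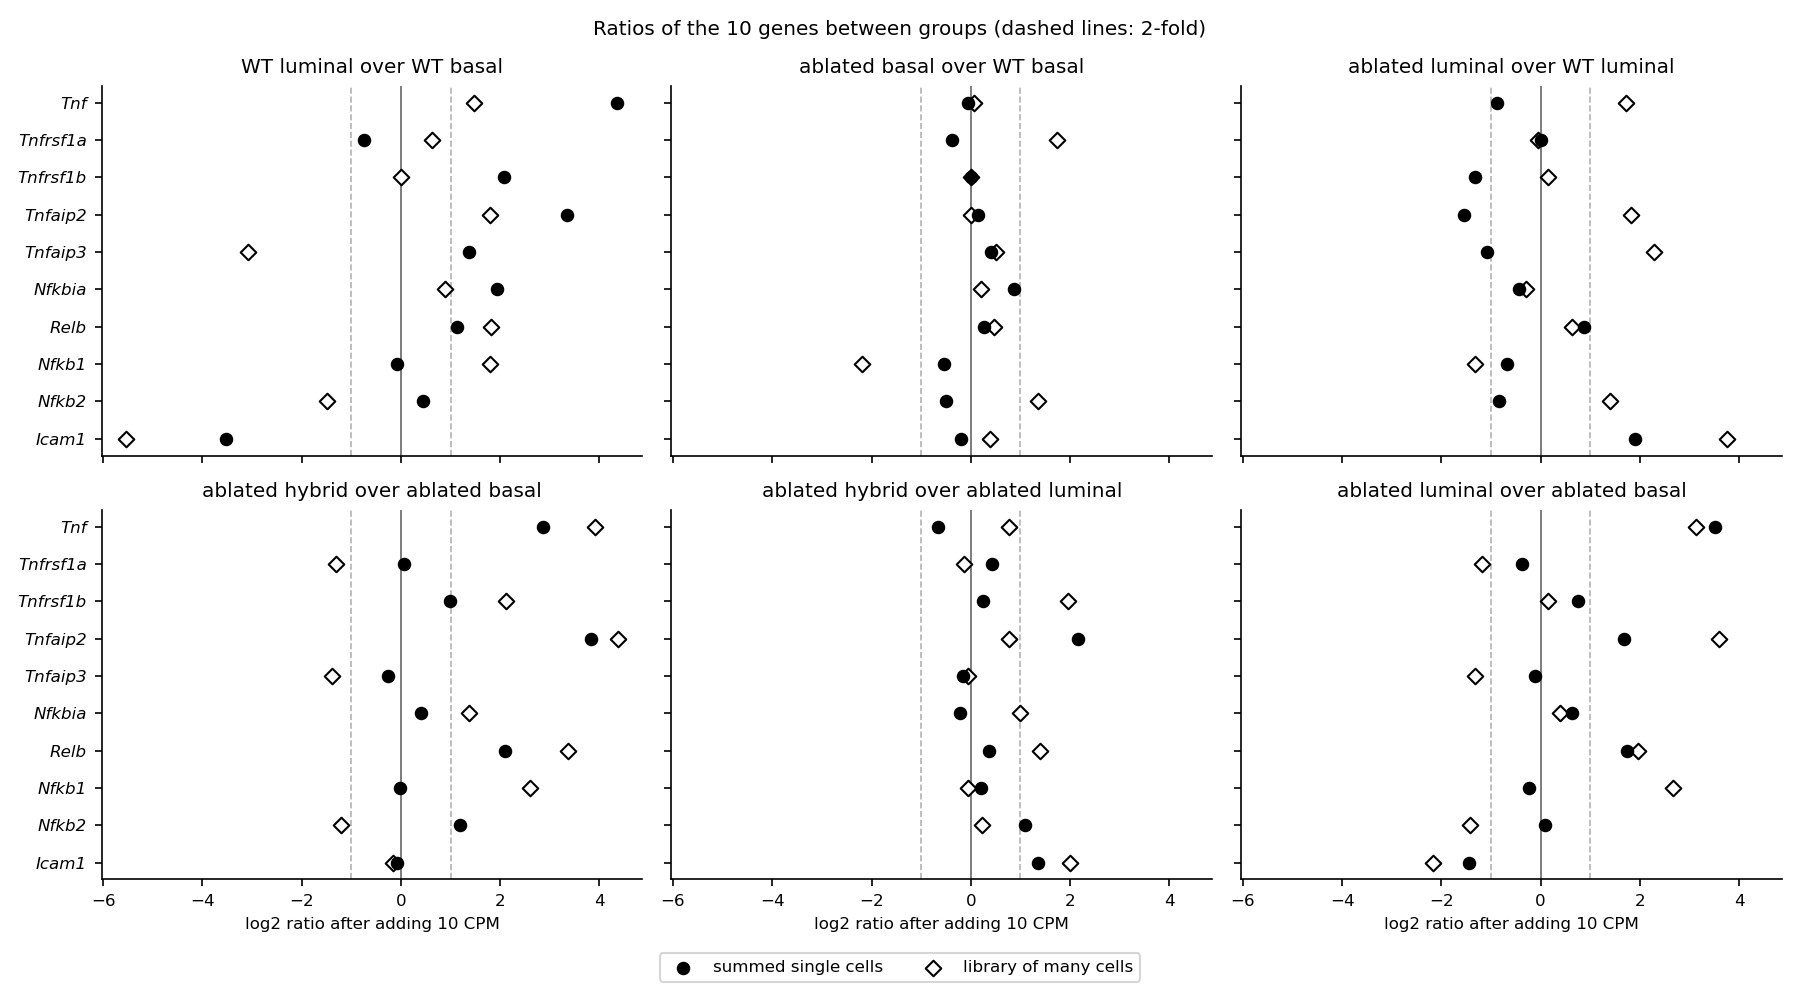
Log2 ratios of the 10 genes in the 6 comparisons, from summed single cells (filled circles) and from the libraries of many cells (open diamonds), with dashed lines at 2-fold. The sign differs between the 2 kinds of library for many ratios, among them Tnfaip3 in WT luminal over WT basal cells. Tnf, Tnfrsf1b, Tnfaip2 and Tnfaip3 in ablated luminal over WT luminal cells and Nfkb2 in hybrid over ablated basal cells differ as well.

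Within the gates that held it, Tnf was compared with the other genes in the same cells. Of the 13 hybrid cells with Tnf 8 also held Tnfaip3, against 11 of the 72 without Tnf. In ablated luminal cells this was 10 of 23 with Tnf against 8 of 53 without, and in WT luminal cells 6 of 12 against 4 of 31. Tnfaip3 was therefore more frequent in cells with Tnf in each of the 3 gates. In hybrid cells the share was 61.5% with Tnf (31.6 to 86.1%) against 15.3% without (7.88 to 25.7%), with intervals that do not overlap. The intervals do overlap in ablated luminal cells (23.2 to 65.5% and 6.75 to 27.6%) and in WT luminal cells (21.1 to 78.9% and 3.63 to 29.8%).

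The intervals of the other genes overlapped between cells with and without Tnf in each of the 3 gates. Hybrid cells with Tnf held Tnfrsf1b in 4 of 13 cells against 2 of 72, Tnfaip2 in 7 of 13 against 15 of 72 and Relb in 9 of 13 against 25 of 72. In ablated luminal cells Nfkb1 was held by 17 of 23 cells with Tnf and 24 of 53 without, and Nfkb2 by 2 of 23 and 16 of 53. In WT luminal cells Tnfaip2 was held by 1 of 12 cells with Tnf and 6 of 31 without, the opposite order to hybrid cells. Of the 7 response genes, hybrid cells with Tnf held a median of 5 and those without a median of 3.5, and 11 of 13 against 23 of 72 held at least 5. Ablated luminal cells held a median of 3 with and 3 without Tnf, and WT luminal cells 3 with and 2 without. Hybrid cells with Tnf also had more genes per thinned cell, 3264 against 2932 without it, and this difference in complexity was not tested as a part of the counts.

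**Figure D5:**
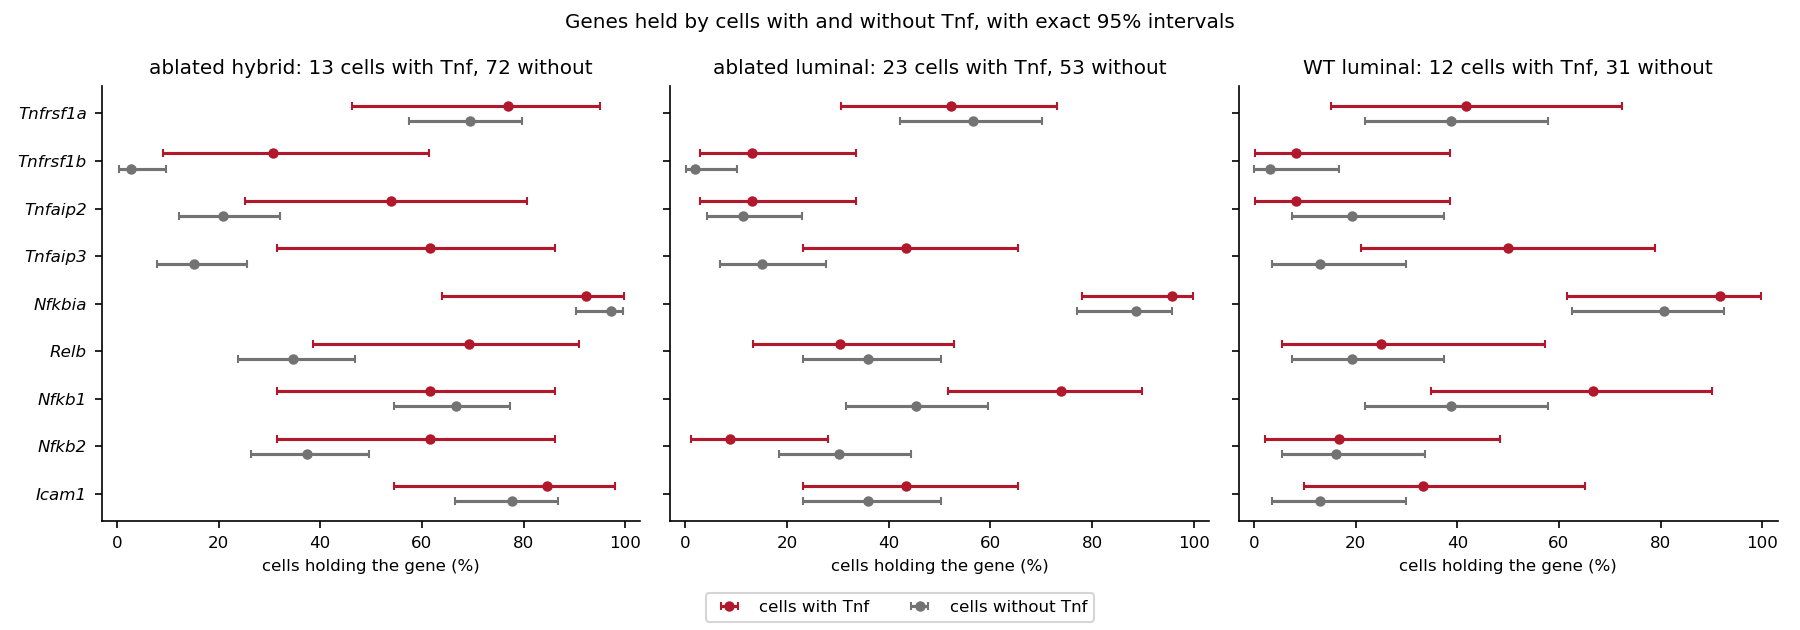
Percent of cells holding each of 9 genes among cells with Tnf (red) and without (grey), in hybrid, ablated luminal and WT luminal cells, with exact Clopper-Pearson 95% intervals. Tnfaip3 is more frequent with Tnf in all 3 gates, at 61.5% against 15.3% in hybrid cells.

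All 13 hybrid cells with Tnf held Krt14, Acta2, Krt8 and Krt18, and all 23 ablated luminal and 12 WT luminal cells with Tnf held Krt8 and Krt18. The leukocyte antigen gene Ptprc and the macrophage gene Adgre1 were detected in no kept cell of any gate. Ptprc had reads below that rule in hybrid cells, at 0.438 CPM. Of the 14 immune genes 5 were detected in at least 1 hybrid cell, 3 in an ablated luminal and 6 in an ablated basal cell. In WT luminal and in WT basal cells it was 1 gene each. Cd68 and Lyz2, the only genes of the immune list that were measured, were detected in some ablated cells. Cd68 was held by 4 hybrid, 5 ablated luminal and 1 ablated basal cell, and Lyz2 by 3, 1 and 2. No WT luminal or WT basal cell held either gene, and their overlap with Tnf was not tested. The myeloid adaptor Tyrobp was held by 1 of 13 hybrid cells with Tnf and 3 of 72 without, and the T cell gene Cd3e by 1 ablated luminal and 1 WT luminal cell with Tnf and by no cell without Tnf in those gates. The 14 immune genes summed to 68.3 CPM in hybrid cells with Tnf and 37.2 CPM in those without, to 13.6 and 13.1 CPM in ablated luminal cells, and to 24.4 and 0.402 CPM in WT luminal cells. Their part in the Tnf values was not tested. Over whole gates the 14 immune genes summed to 42.9, 13.3 and 33.4 CPM in hybrid, ablated luminal and ablated basal cells, and to 5.94 and 2.53 CPM in WT luminal and WT basal cells. Of WT luminal cells with Tnf 8 of 12 held the secretory progenitor marker Kit, against 13 of 31 without. The hormone-sensing markers Pgr and Foxa1 were held by 0 and 1 of 12 cells with Tnf and by 7 and 12 of 31 without. The hormone-sensing marker Prlr was held by 6 of 12 and 18 of 31 of these cells, and the secretory marker Csn3 by 10 of 12 and 26 of 31. Ablated luminal cells did not show the WT luminal difference in Kit, Pgr and Foxa1. Kit was held by 8 of 23 ablated luminal cells with Tnf and 17 of 53 without. Pgr was held by 6 of 23 and 14 of 53 of these cells, and Foxa1 by 10 of 23 and 18 of 53. The 7 hormone-sensing genes summed to 3212 CPM in ablated luminal cells with Tnf and 2818 CPM in those without, but to 1168 and 3582 CPM in WT luminal cells. The secretory list was higher with Tnf in both luminal gates by its summed reads. It summed to 11916.5 CPM with Tnf and 5052.5 CPM without in ablated luminal cells, and to 46196 and 33959 CPM in WT luminal cells. The highest ablated luminal cell held 71589 CPM of it, against a median of 806. Shares of ablated luminal cells went both ways. With Tnf, 7, 2, 11 and 7 of 23 held Csn3, Elf5, Ltf and Aldh1a3, against 21, 8, 15 and 10 of 53 without. Hybrid cells went the other way by summed reads, at 8505 CPM with Tnf and 11935 CPM without. The highest hybrid cell held 167540 CPM of this list, against a median of 7123. Shares of hybrid cells did not follow the sum. With Tnf, 6, 9, 10 and 5 of 13 held Elf5, Kit, Csn3 and Ltf, against 10, 27, 46 and 12 of 72 without. Aldh1a3 was held by 0 of 13 with Tnf and 9 of 72 without.

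Immediate early genes, which respond within minutes to stress and to tissue dissociation, were higher in cells with Tnf in each of the 3 gates. The 13 genes on that list summed to 15829 CPM in hybrid cells with Tnf and 10910 CPM in those without, to 15476 and 9160 CPM in ablated luminal cells, and to 21199 and 11820 CPM in WT luminal cells. Between gates the list was highest where Tnf was at background, at 22492 CPM in ablated basal and 25071 CPM in WT basal cells. The part of these genes in the Tnf values was not tested either.

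The genes most like 4 of the members were ranked by Pearson correlation over all 319 kept cells, on log2(CPM + 10) with each group's mean removed, among 6617 genes held by at least 10% of cells. The most similar gene to Tnf was Tnfaip3 (r = 0.32), followed by the immediate early gene Nr4a1, the epithelial factor Ehf, the chemokine Cxcl2 and the RNase gene Zc3h12a (0.28 to 0.26). Nfkbia was most like Gadd45b (0.37), Icam1, Tnfaip3, Mfge8 and Nfkb1, the last at 0.27. Icam1 was most like Nr4a1 (0.37), Pde4b, Ifrd1, Klf5 and Gadd45b. Tnfrsf1b had no gene above 0.26, and its nearest were Cdc42se2, Alg14, D10Wsu102e, Atp9b and Vps4a. All correlations are weak and describe cells from separate wells of 1 plate, with their differences in depth and the zero counts of sparse reads. Tnfrsf1a was not correlated with Tnf, at −0.04.

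Other genes of the pathway were read from lists. Of the 12 other TNF superfamily ligands 4 were measured, namely Tnfsf9, Tnfsf10, Tnfsf12 and Tnfsf13. The TWEAK ligand Tnfsf12 was held by 3 of 85 hybrid, 0 of 76 ablated luminal and 4 of 71 ablated basal cells, while the WT luminal gate had it in 0 of 43 cells and the WT basal gate in 8 of 44. Its receptor Tnfrsf12a was at 828.7, 1175 and 270.2 CPM in hybrid, ablated luminal and ablated basal cells, and at 756 and 1500.1 CPM in WT luminal and WT basal cells. The decoy receptor Tnfrsf11b was at 74.1 CPM in ablated basal and 0.0866 CPM in WT basal cells, which is 3.06 on the log2 scale over single cells and 0.57 between the many-cell libraries.

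Of the 9 core genes, which hold kinases, subunits and inhibitors, 4 were past 2-fold higher and none lower in hybrid over ablated basal cells, where 16.04% of all measured genes were higher and 8.869% lower. The same counts stood in ablated luminal over ablated basal cells, against 19.27% and 13.17%. They went both ways in WT luminal over WT basal cells, with 4 higher and 1 lower against 22.33% and 21.26%, and in ablated basal over WT basal cells, with 3 higher and 3 lower against 19.79% and 14.95%. In ablated luminal over WT luminal cells 1 of the 9 was higher and 1 lower, against 15.27% and 6.609%. In hybrid over ablated luminal cells 1 was higher and none lower, against 5.997% and 4.187%. The subunit gene Rela was at 270.1 CPM in hybrid, 310 CPM in ablated luminal and 116 CPM in ablated basal cells. The NF-kB inhibitor Nfkbie was at 65.3 CPM in hybrid and 1.48 CPM in ablated basal cells, while the many-cell libraries gave a log2 ratio of −2.25. Of 24 measured target genes 4 were higher and 7 lower in WT luminal over WT basal cells, against 22.33% and 21.26% of all genes, and 5 and 4 in ablated basal over WT basal cells, against 19.79% and 14.95%. In ablated luminal over WT luminal cells 5 were higher and 5 lower, against 15.27% and 6.609%. In hybrid cells 6 were higher and 4 lower over ablated basal cells, against 16.04% and 8.869%, and 7 and 3 over ablated luminal cells, against 5.997% and 4.187%. In ablated luminal over ablated basal cells 6 were higher and 10 lower, against 19.27% and 13.17%. The counts went both ways in every comparison. The chemokine Ccl2 and the adhesion molecule Vcam1 were, like Icam1, lower in WT luminal cells. Ccl2 was at 0.492 CPM in WT luminal and 143 CPM in WT basal cells, and Vcam1 at 22.2 CPM in WT luminal and 271 CPM in WT basal cells. Cxcl2 was, like Tnf, higher in WT luminal cells, at 148 CPM in WT luminal and 1.93 CPM in WT basal cells. The log2 ratio of Cxcl2 was 3.73 over single cells and 0.38 between the libraries of many cells, where it was no longer past 2-fold.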

How the data were processed

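Reads had been trimmed with cutadapt 1.13, aligned to GRCm38 with STAR 2.5.2b and counted per gene with HTSeq 0.6.0, per the submitters' processing notes, and Seurat is also named there. Whether counting used strand is not stated in the labels or headers, so reads of overlapping antisense genes cannot be told apart. In the GENCODE annotation such genes share 314 of 4984 exon bases of Tnfaip2, 511 of 4360 of Icam1, and 531 and 299 of 4584 of Nfkb2. The authors deposited whole-number read counts of 49585 genes in 384 wells, made by a Smart-seq2 method without molecular identifiers. The members and lists were chosen with earlier results of these data known. Of the gene identifiers 49326 matched a symbol. The 92 spike-in rows, with 11 reads in all, were left out. Reads were summed over the kept cells of a group and given as CPM with exact Poisson 95% intervals in the tables. A gene counted as measured when its CPM averaged 5 or more across the groups, as 11106 did. Named list genes are those past 2-fold with at least 50 CPM in the higher group, at most 4 per list and comparison. A few list genes named beyond that rule (Tnfsf9, Tnfsf10, Tnfsf12, Tnfsf13, Ptprc, Adgre1, Tyrobp, Cd3e, Cd68, Lyz2, Krt8, Elf5 and Aldh1a3) were chosen after their values were seen. Lcn2 stands in both the secretory and the target list. Alternatives included DESeq2 1.42.0 and edgeR 4.0.16 scaling factors. Scripts ran in Python 3.11.15 and R 4.3.3 and were tested on simulated data.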

Additional observations from a re-analysis of the deposited data

Results flagged for a closer look

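Icam1 had 5 reads in 1 of the negative control wells, where the other 4 held 1 or 2, a gap to the nearest well that is large for the range of 5 wells. Chance gives such a gap in about 1 group in 20. The reads are few beside the 1935 of the WT basal library of many cells.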

How the results depend on the processing

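Of the 22 ratios past 2-fold, all kept their direction under the 10 alternatives that used single cells, and at least 19 stayed past 2-fold. With the libraries of many cells 16 kept their direction and 13 stayed past 2-fold, and 19 others were newly past it. The reversed ratios there were Tnfaip3 in WT luminal over WT basal cells (−3.08), Tnfrsf1b, Tnfaip2 and Tnfaip3 in ablated luminal over WT luminal cells (0.156, 1.82 and 2.28) and Nfkb2 in hybrid over ablated basal cells (−1.21), and the cause was not tested. Tnfrsf1b in WT luminal over WT basal cells had no read in either of these libraries. The count of genes past 2-fold in ablated basal over WT basal cells, 0 as reported, was 1 with equal weight per cell, 2 when each gene lost its top cell in each group, 3 with the libraries of many cells and 1 at 1.5-fold. In ablated luminal over WT luminal cells, with 4 as reported, it was 7 with median-of-ratios scaling and 8 at 1.5-fold. With the libraries of many cells it was 9 in hybrid over ablated basal cells and 8 in ablated luminal over ablated basal cells, where 4 and 4 were reported. The share of all measured genes past the bound depended on the setting too. In ablated basal over WT basal cells it was 34.7% as reported and with equal weight per cell, and 29.4% without top cells. It was 45.8% there with the many-cell libraries and 54.9% at 1.5-fold. In ablated luminal over WT luminal cells it was 21.9%, then 19.97% with median-of-ratios scaling and 44.4% at 1.5-fold. With the many-cell libraries it was 45.9% in hybrid and 48.8% in ablated luminal over ablated basal cells. No paired analysis was possible because each group is 1 sample and no fit was tested. Shares of cells depended on the detection rule: of 50 shares, 28 moved beyond their interval with detection at 1 read, 19 at 20 reads and 25 with no thinning. Thinning to 50000 reads moved 5.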
